A study of Mus musculus with 10 samples.

Results

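The enzymes that write, erase and read out chemical marks on histones and DNA were examined in mouse splenic B cells. The list held 53 genes, and each of them had at least 1 probe set carrying that gene's symbol alone, out of 19937 genes measured that way. The rule matched gene symbols and used no measured value, though the list was drawn up with earlier results of these data known. They comprised 9 histone deacetylases, 6 Polycomb genes, 6 genes grouped as methyltransferases of histone H3 lysine 4 and 6 other lysine methyltransferases. The rest were 10 lysine demethylases, 6 acetyltransferases, 7 genes of DNA methylation and 3 remodellers.

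B220+CD22+ B cells sorted from spleen were profiled on 10 Affymetrix Mouse Gene 1.0 ST arrays, all from the strain background CBAxC57BL/6J. The wild-type group had 3 arrays. The floxed group had 3 arrays of Sca1-Bcl6(floxed) mice, whose transgene places Bcl6 and eGFP, joined by an IRES and enclosed by loxP sites, in the pLy6 (Sca1) vector. The delta group had 4 arrays of Sca1-Bcl6(delta) mice, the same transgene after breeding to mb1-Cre, so floxed and delta cells both come from transgenic animals and delta cells alone carry Cre. The Sca1 (Ly6a) vector is known for activity in stem and progenitor cells, and mb1 is Cd79a, whose locus drives Cre in the B lineage. More than 1 transgenic line was made, and which line, age and sex belong to which array is not given in the sources used here. None of the groups carried mb1-Cre without the transgene. Whether each array stands for its own animal is not stated either, so the p-values measure the spread between these samples, which may be technical.

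Histone acetyltransferases add acetyl groups that open chromatin, and deacetylases remove them, often inside corepressor complexes recruited by repressors such as Bcl6. Polycomb complexes silence genes by methylating lysine 27 of histone H3 and by ubiquitinating histone H2A. Most Kmt2 enzymes and the Setd1 enzymes mark active promoters and enhancers on lysine 4. Dnmt enzymes methylate cytosine in DNA and Tet enzymes oxidise that methyl group. In B cells Ezh2 and Bcl6 are known partners of the germinal centre reaction, and Kmt2d, Crebbp and Ep300 are known for their loss in germinal centre lymphomas.

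Levels are given as log2 of the deposited RMA intensity, and a change is the difference of group means on that scale. It was estimated with limma over all 19937 genes and all 10 arrays, with Benjamini-Hochberg adjustment over all genes and a threshold of 0.05 on the adjusted p. The median intensity per array lay between 139 and 145. Bcl6 itself was at 9.80 to 10.48 in wild-type, 9.80 to 9.96 in floxed and 9.56 to 9.83 in delta arrays. Of 7 B cell markers 6 were measured, and their mean log2 level was 13.12 to 13.22 in wild-type, 13.13 to 13.22 in floxed and 13.03 to 13.10 in delta arrays. Cd79a, whose locus carries Cre, fell in delta against wild-type (log2 -0.48, limma adjusted p = 0.0427), and the other 5 were at -0.08 to 0.10. The sex pattern read from Xist and from Y-linked genes was female in 3 of 3 wild-type arrays, male in 3 of 3 floxed arrays and male in 1 of 4 delta arrays (delta 1), so sex and genotype cannot be told apart in floxed against wild-type. Values given with sex pattern as a covariate take the sex term from delta 1 alone, the 1 array whose sex pattern departs from its group.

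Markers of other cells and of dividing cells also differed between arrays. The mean of the T cell list (8 of 11 markers measured) was 6.45 to 6.77 in wild-type, 6.66 to 7.44 in floxed and 6.44 to 6.95 in delta arrays, with floxed 2 at 6.66. The NK cell list (8 of 8) was at 5.98 to 6.10, 6.26 to 6.72 and 5.93 to 6.37, the myeloid list (10 of 10) at 6.58 to 6.61, 6.79 to 7.24 and 6.69 to 7.17, and the erythroid list (5 of 8) at 6.81 to 7.11, 7.31 to 7.64 and 6.69 to 7.15. The plasma cell list (5 of 5) was at 8.47 to 8.67, 8.87 to 8.89 and 8.61 to 8.74, and the proliferation list (13 of 14) at 7.72 to 7.86, 7.91 to 7.998 and 7.70 to 7.77. In floxed against wild-type the plasma cell genes Jchain and Sdc1 passed in opposite directions (log2 1.64 and -0.51, limma adjusted p = 0.00383 and 0.04505). The myeloid markers also disagreed there, with 6 of 10 higher and 4 lower and none past the threshold. Adgre1 and Itgam were at 1.91 and 1.12, and Csf1r and Cd14 at -0.21 and -0.26. None of these markers is listed at 0, since RMA leaves a positive value for every probe set. The part of these lists in the results below was not tested. Where list means are given beside a gene, they only describe those arrays.

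Most of the chromatin enzymes, like most genes on the array, had small differences between group means. The log2 change was under 0.2 in size for 45 of 53 members in floxed against wild-type, beside 17239 of 19937 genes. It was so for 47 members in delta against wild-type and 50 in delta against floxed, beside 18245 and 18576 genes. In floxed against wild-type, Hdac1 rose and the other 52 members did not pass the threshold, beside 0.552% of all genes that passed, 0.391% higher and 0.161% lower. Of the 53 members, 11 had floxed and wild-type arrays that did not overlap, or 20.8%, against 16.7% of all genes. These were 6 higher (Hdac1, Hdac4, Hdac6, Bmi1, Ehmt2 and Kat2a) and 5 lower (Hdac9, Ezh2, Eed, Dnmt3b and Tet1), where 7.6% of all genes were higher and 9.13% lower. Further, 8 members had an unadjusted p under 0.05, or 15.1%, against 12.8%. Both shares lie near those of the whole array. The median change over members was -0.030 and that over all genes was -0.024.

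In delta against wild-type none of the 53 members passed the threshold in limma, where 0.0752% of all genes did, 0.0301% higher and 0.0451% lower. The groups did not overlap for 4 members, or 7.55%, against 9.25% of all genes. Hdac1 and Kdm6b were higher and Ezh2 and Tet1 lower, where 3.75% of all genes were higher and 5.5% lower. Unadjusted, 5 members had a p under 0.05, or 9.43%, against 7.89%. The median change over members was 0.0078, and -0.014 over all genes. In delta against floxed no member passed either, where 0.00502% of all genes did. The groups did not overlap for 3 members, or 5.66%, against 6.96% of all genes. Kmt2e and Arid1a were higher and Hdac6 lower, where 3.36% of all genes were higher and 3.61% lower. Only Uhrf1, 1 of 53, had an unadjusted p under 0.05, or 1.89%, against 6.42%. The median change was 0.030 over members and 0.0045 over all genes.

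The intervals of the fit without sex pattern bound the difference between these groups of arrays for most members. They do not bound an effect of genotype in floxed against wild-type, where sex pattern coincides with group. The 95% confidence interval (CI) lay wholly within 0.5 log2 units of 0, which is a 1.41-fold change, for 46 of 53 members in floxed against wild-type, beside 90.9% of all genes. The exceptions were Hdac1, Hdac9, Ezh2, Bmi1, Cbx7, Kdm6b and Tet1. It did so for 49 members in delta against wild-type, beside 93.5% of all genes, with Ezh2, Cbx7, Kdm6b and Tet1 outside. In delta against floxed 51 members lay within this bound, beside 94.7% of all genes, and Cbx7 and Kdm6b did not. The standard deviation (SD) between arrays of a group had a median of 0.073 over the members and 0.105 over all genes.

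**Figure D1:**
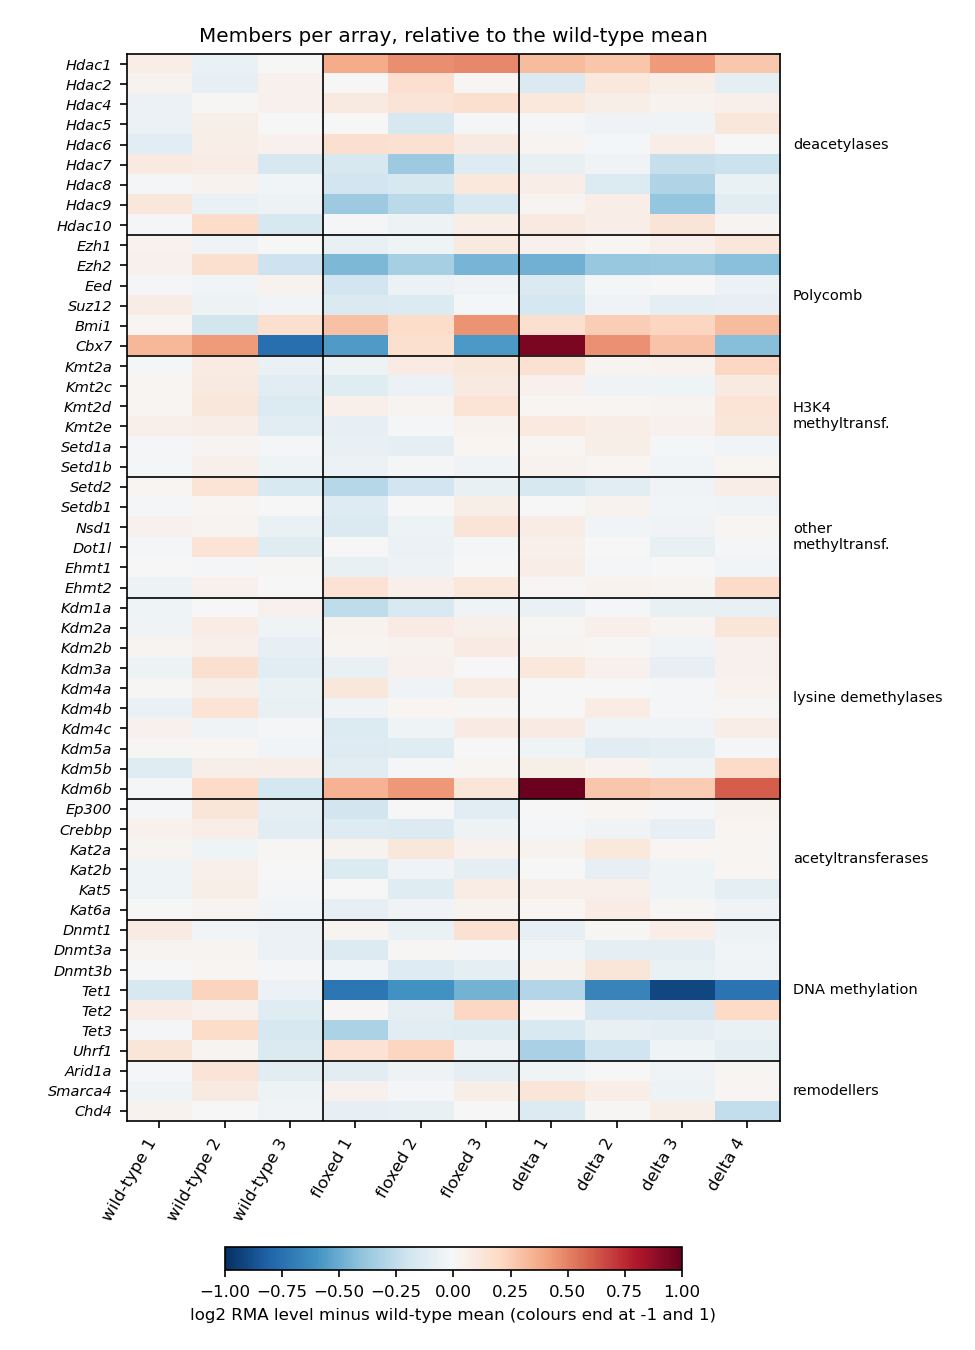
Each row is 1 of the 53 members, grouped by role, and each column is 1 array; colour gives the log2 RMA level minus the wild-type mean of that gene, with colours ending at -1 and 1. Hdac1, Ezh2, Tet1, Cbx7 and Kdm6b are the rows with the strongest colours, and most other rows are pale in all 10 arrays.

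Hdac1 encodes a class I deacetylase, a catalytic subunit of the NuRD, Sin3 and CoREST corepressor complexes. Its log2 level was 10.73, 10.60 and 10.65 in wild-type, 11.03, 11.13 and 11.14 in floxed, and 10.97, 10.94, 11.09 and 10.93 in delta arrays. All 7 transgenic arrays lay above all 3 wild-type arrays, and floxed and delta arrays overlapped. In floxed against wild-type Hdac1 rose 1.36-fold (log2 0.44, SE 0.07, 95% CI 0.29 to 0.59, limma adjusted p = 0.0180).

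The change of Hdac1 in delta against wild-type was 0.32 (SE 0.06, 95% CI 0.18 to 0.46, limma adjusted p = 0.144), and in delta against floxed it was -0.12 (95% CI -0.26 to 0.02, adjusted p = 0.814). The comparisons against wild-type share their control arrays. Floxed 2, with an Hdac1 level of 11.13, had a T cell mean within the wild-type range (6.66) and NK cell, myeloid, erythroid, plasma cell and proliferation means above it (6.26, 6.87, 7.47, 8.89 and 7.998). Single NK cell and myeloid markers disagreed in floxed 2. Prf1 (8.78), Il2rb (8.11), Adgre1 (9.83) and Itgam (7.90) lay above all their wild-type arrays. Klrb1c (4.38), Klrd1 (5.61), Gzma (5.49), Csf1r (6.58), S100a8 (5.43), S100a9 (6.82) and Cd14 (5.70) lay below all of theirs. In the 6 arrays of female pattern alone, delta against wild-type gave 0.32 for Hdac1 (SE 0.07, limma adjusted p = 0.412). The arrays of male pattern hold a single delta array, so no comparison was made among them.

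The call of Hdac1 in floxed against wild-type ended with sex pattern as a covariate (log2 0.45, SE 0.12, adjusted p = 0.484). It also ended without wild-type replicates 1 or 2 and without floxed replicates 2 or 3 (limma adjusted p = 0.0554, 0.0938, 0.0750 and 0.0697), at log2 changes between 0.41 and 0.47. Over all 19 alternatives its adjusted p ran from 0.0103 to 0.484.

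A second probe set annotated to Hdac1 (10447004) was at 9.61 to 9.71 in wild-type, 10.04 to 10.26 in floxed and 9.81 to 10.26 in delta arrays. It thus also had every transgenic array above every wild-type array. Its change was 0.49 in floxed against wild-type (SE 0.10, limma adjusted p = 0.0614 over all probe sets) and 0.37 in delta against wild-type (SE 0.10, adjusted p = 0.257). RefSeq lists a pseudogene copy, Hdac1-ps, and the share of each copy in these probe sets cannot be told apart.

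Among the other deacetylases none passed the threshold in any of the 3 comparisons. Hdac2, the closest relative of Hdac1 and its partner in the same complexes, was at 9.38 to 9.50 in wild-type, 9.46 to 9.62 in floxed and 9.31 to 9.56 in delta arrays, and all groups overlapped. Its change in floxed against wild-type was 0.06 (95% CI -0.12 to 0.24). The difference between Hdac1 and Hdac2 was not tested.

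The class IIa enzymes Hdac4, Hdac5, Hdac7 and Hdac9 bind lineage transcription factors such as Mef2 and have weak catalytic activity of their own. Hdac7, which is known to hold B cell precursors to their lineage, was at 10.08, 10.07 and 9.83 in wild-type, 9.83, 9.63 and 9.86 in floxed, and 9.92, 9.96, 9.76 and 9.77 in delta arrays. Wild-type 3 fell within the floxed range, and floxed minus wild-type was -0.22 (95% CI -0.42 to -0.02, limma adjusted p = 0.353), and -0.15 without floxed replicate 2. Hdac9 was at -0.26 (adjusted p = 0.355), with every floxed array (10.03 to 10.24) below every wild-type array (10.33 to 10.51) and delta arrays spread over both (10.01 to 10.47). Hdac4 was at 0.13 (adjusted p = 0.381), with floxed arrays at 8.85 to 8.92 and wild-type arrays at 8.70 to 8.80. A second probe set annotated to Hdac4 (10356626) was at 0.05 (limma adjusted p = 0.834 over all probe sets). Its floxed arrays (7.80 to 8.04) overlapped with its wild-type arrays (7.79 to 7.98). Hdac5 was at -0.06 in the same comparison.

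Hdac6, an X-linked cytoplasmic enzyme that deacetylates tubulin, was at 8.03, 8.21 and 8.19 in wild-type, 8.30, 8.29 and 8.23 in floxed, and 8.17, 8.12, 8.21 and 8.14 in delta arrays. Floxed arrays lay above all the others by a narrow margin, and the change in delta against floxed was -0.12 (95% CI -0.25 to 0.01, limma adjusted p = 0.804). Hdac8, a class I enzyme that is also X-linked, was at -0.08 in floxed against wild-type and -0.11 in delta against wild-type (adjusted p = 0.779 and 0.852). Hdac10, a polyamine deacetylase, was at 0.0011 and 0.08 in these comparisons.

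**Figure D2:**
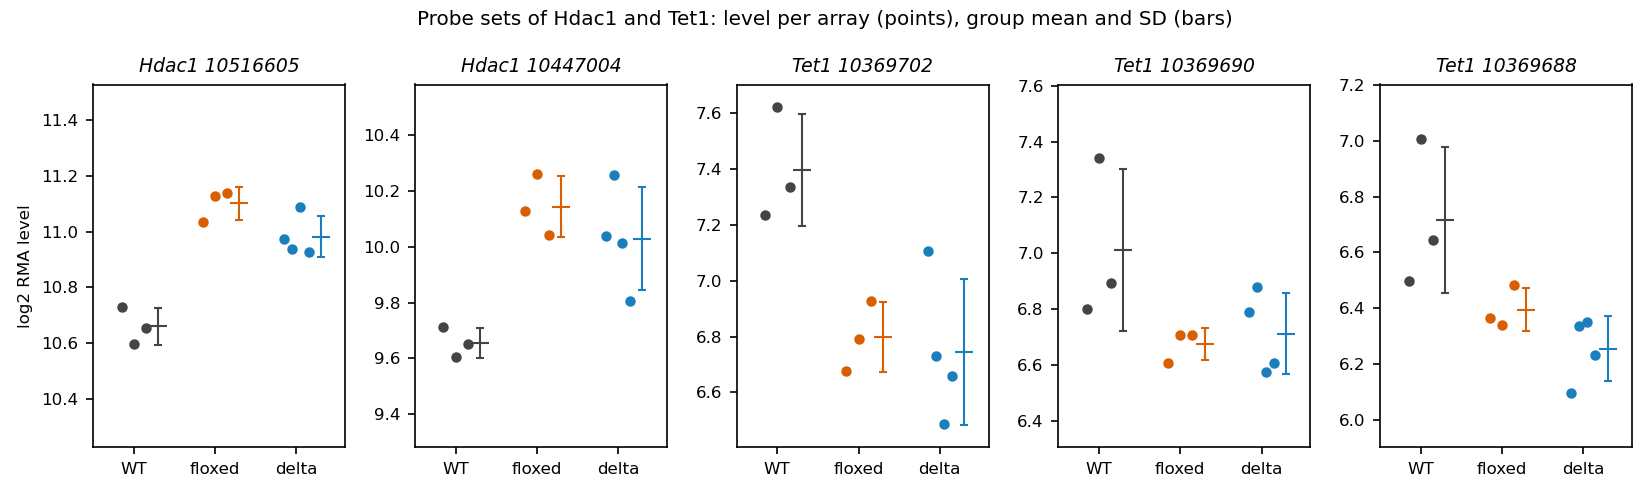
Log2 RMA level of the 2 probe sets of Hdac1 and the 3 of Tet1, per array (points) with group mean and SD (bars) for 3 wild-type, 3 floxed and 4 delta arrays. Both Hdac1 probe sets have all transgenic arrays above wild-type; all 3 Tet1 probe sets have lower transgenic than wild-type means, and 10369690 has 1 delta array (6.88) within the wild-type range.

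In the Polycomb group none of the 6 members passed the threshold. Ezh2, the methyltransferase of Polycomb repressive complex 2 (PRC2), was at 9.50, 9.62 and 9.25 in wild-type, 9.01, 9.13 and 8.99 in floxed, and 8.97, 9.07, 9.08 and 9.04 in delta arrays. Every transgenic array lay below every wild-type array, and floxed and delta arrays spanned the same narrow range. The change of Ezh2 was -0.41 in floxed against wild-type (SE 0.09, 95% CI -0.61 to -0.22, limma adjusted p = 0.0684) and -0.41 for delta arrays against wild-type (SE 0.08, 95% CI -0.59 to -0.23, adjusted p = 0.154). In delta against floxed it was -0.00036 (95% CI -0.18 to 0.18). In such sorted bulk samples, fewer cells of a type and less RNA per cell cannot be told apart.

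The Ezh2 values moved with 1 wild-type array. Without wild-type replicate 3, its lowest wild-type level, Ezh2 passed the threshold in both comparisons against wild-type (log2 -0.51 and -0.52, limma adjusted p = 0.0204 and 0.0465). Over all 19 alternatives its adjusted p ran from 0.0204 to 0.722 in floxed against wild-type and from 0.0465 to 0.427 in delta against wild-type. In the arrays of female pattern alone Ezh2 in delta against wild-type was -0.39 (SE 0.09, adjusted p = 0.440). Ezh2 is known to follow cell division, and in the same floxed arrays the proliferation list was above its wild-type range while Ezh2 was below its own; their relation was not tested.

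Ezh1, the PRC2 methyltransferase of resting cells, was at 10.07 to 10.14 in wild-type, 10.03 to 10.20 in floxed and 10.12 to 10.22 in delta arrays. Its changes were -0.0058 and 0.06 against wild-type (95% CI -0.15 to 0.13 and -0.07 to 0.19). The PRC2 subunits Eed and Suz12, which are required for the activity of either methyltransferase, were both at -0.10 in floxed against wild-type (limma adjusted p = 0.586 and 0.566). Floxed arrays of Eed (9.54 to 9.69) lay below its wild-type arrays (9.70 to 9.77), whereas 1 floxed array of Suz12 (10.63) lay within its wild-type range (10.60 to 10.73).

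Bmi1, a ring-finger subunit of Polycomb repressive complex 1 (PRC1) needed for the self-renewal of blood stem cells, was at 9.50, 9.29 and 9.63 in wild-type, 9.77, 9.66 and 9.92 in floxed, and 9.63, 9.72, 9.69 and 9.79 in delta arrays. Floxed arrays lay above wild-type, and delta 1 met the highest wild-type array at 9.63. Its change was 0.31 in floxed against wild-type (SE 0.09, 95% CI 0.10 to 0.52, limma adjusted p = 0.187) and 0.23 for delta arrays against wild-type (SE 0.09, adjusted p = 0.516), the latter 0.14 without wild-type replicate 2. Bmi1 was thus higher in floxed arrays while Ezh2 of PRC2 was lower, each without passing the threshold.

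Cbx7, a PRC1 subunit that binds methylated lysine 27, varied more between arrays than between groups. It was at 10.19, 10.29 and 9.11 in wild-type, 9.30, 10.02 and 9.29 in floxed, and 10.81, 10.32, 10.15 and 9.44 in delta arrays. Each group held an array between 9.11 and 9.44 and another above 10, and its SD within groups of 0.56 was the widest of the 53 members. The change in delta against floxed was 0.64 with a wide interval (95% CI -0.10 to 1.38, limma adjusted p = 0.814), and 1.27 with sex pattern as a covariate (SE 0.47, adjusted p = 0.763).

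The promoters of Ezh2, Tet1 and Bmi1 are shown because these genes followed Hdac1 in p-value in floxed against wild-type. RefSeq sequences (GRCm38.p6) covered 43 of the 53 members with 63 promoters. Hdac1 and Kdm6b had no promoter among the sequences used, so the searches below do not cover them. Each window runs 5′ to 3′ from 250 bases before the annotated start to 30 after it. Capitals mark matches, on either strand, to a CCAAT box (CCAAT), an E2F-type site (TTTGGCGC or TTTCCCGC) or the pattern TTCNNNGAA. That last pattern is shared by STAT sites and includes TTCCTAGAA, a known Bcl6 motif. The Ezh2 window is chr6:47595001-47595280 on the minus strand, that of Tet1 is chr10:62887295-62887574 on the minus strand and that of Bmi1 is chr2:18676768-18677047 on the plus strand.
Ezh2: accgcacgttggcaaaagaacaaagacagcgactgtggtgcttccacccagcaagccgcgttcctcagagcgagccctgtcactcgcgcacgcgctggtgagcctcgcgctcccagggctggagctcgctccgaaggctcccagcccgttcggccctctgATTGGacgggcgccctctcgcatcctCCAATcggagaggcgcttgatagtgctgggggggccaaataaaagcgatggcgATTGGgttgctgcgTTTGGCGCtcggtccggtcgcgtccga
Tet1: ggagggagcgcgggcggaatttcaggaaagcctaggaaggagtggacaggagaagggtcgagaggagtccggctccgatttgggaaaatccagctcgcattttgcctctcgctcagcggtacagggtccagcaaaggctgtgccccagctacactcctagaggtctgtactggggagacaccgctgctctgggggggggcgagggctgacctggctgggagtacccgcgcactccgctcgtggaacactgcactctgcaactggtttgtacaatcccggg
Bmi1: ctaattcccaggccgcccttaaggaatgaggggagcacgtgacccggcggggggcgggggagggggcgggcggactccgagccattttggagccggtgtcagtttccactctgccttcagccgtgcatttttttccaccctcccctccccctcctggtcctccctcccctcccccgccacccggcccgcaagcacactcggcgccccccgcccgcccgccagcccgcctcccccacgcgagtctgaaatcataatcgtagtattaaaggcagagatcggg

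The Ezh2 window held 3 CCAAT boxes, at -90, -64 and -11, and an E2F-type match at 4 after the start, while the Tet1 and Bmi1 windows held none of the searched letters. Among 32851 mouse promoters of the same length, 36.1% held a CCAAT box and 1.46% an E2F-type match, and among the 63 member promoters 36.5% and 4.76% did. The E2F-type matches were in Ezh2, Suz12 and Arid1a. TTCNNNGAA was in 7.83% of all promoters and in 4 of the 63 member promoters, 1 each of Kdm3a and Kmt2d and 2 of Hdac7, and TTCCTAGAA was in 0.387% of all promoters and in none of these 63. Member promoters were rich in CpG, with a median of 26 CpG in the window, where the median of all promoters was 6. A match describes letters in a window and does not show binding.

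Among the 7 genes of DNA methylation none passed the threshold. Tet1, which oxidises 5-methylcytosine, was at 7.23, 7.62 and 7.34 in wild-type, 6.68, 6.79 and 6.93 in floxed, and 7.11, 6.73, 6.49 and 6.66 in delta arrays. All transgenic arrays lay below all wild-type arrays, with delta 1 the closest to them. These levels are low: the mean Tet1 intensity was 170 in wild-type, 112 in floxed and 109 in delta arrays, where array medians were 139 to 145. Whether a change so low on the scale reflects the transcript was not tested. The change of Tet1 was -0.60 in floxed against wild-type (SE 0.15, 95% CI -0.92 to -0.28, limma adjusted p = 0.1005) and -0.65 for delta arrays against wild-type (SE 0.14, 95% CI -0.95 to -0.35, adjusted p = 0.161). In delta against floxed it was -0.05 (95% CI -0.35 to 0.25), and turned to 0.31 with sex pattern as a covariate (SE 0.16, adjusted p = 0.837).

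Delta 1, the delta array of male pattern, set part of the spread of Tet1. Without it Tet1 passed the threshold for floxed arrays against wild-type (log2 -0.60, limma adjusted p = 0.0465), and in the arrays of female pattern alone delta against wild-type was -0.77 (SE 0.11, adjusted p = 0.201). With sex pattern as a covariate Tet1 in floxed against wild-type was -1.08 (SE 0.19, adjusted p = 0.224). Over all 19 alternatives the adjusted p of Tet1 ran from 0.0465 to 0.318 in floxed against wild-type. A further pair of probe sets annotated to Tet1 was at -0.34 and -0.32 in floxed against wild-type and at -0.30 and -0.46 in delta against wild-type, each at a limma adjusted p of 0.204 or more.

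Tet2, which is often mutated in blood cancers, overlapped between groups, at 9.13 to 9.32 in wild-type, 9.15 to 9.45 in floxed and 9.08 to 9.44 in delta arrays. Tet3 was at 9.15 to 9.49, 8.99 to 9.20 and 9.15 to 9.24, with a change of -0.18 in floxed against wild-type (limma adjusted p = 0.428). Whether Tet1 differs from its relatives was not tested.

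Dnmt1, which copies methylation onto new DNA strands, was at 9.54 to 9.68 in wild-type, 9.53 to 9.75 in floxed and 9.51 to 9.66 in delta arrays, and its changes against wild-type were 0.04 (95% CI -0.13 to 0.20) and -0.01 (95% CI -0.16 to 0.14). The de novo enzyme Dnmt3a was at -0.05 and -0.06. The other de novo enzyme, Dnmt3b, was at 7.49 to 7.53 in wild-type, 7.37 to 7.48 in floxed and 7.44 to 7.62 in delta arrays. Its floxed arrays lay just below wild-type, at a change of -0.08 (limma adjusted p = 0.636).

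Uhrf1, which brings Dnmt1 to newly replicated DNA, had the smallest p of the members in delta against floxed. It was at 7.34, 7.25 and 7.08 in wild-type, 7.37, 7.44 and 7.17 in floxed, and 6.90, 7.02, 7.18 and 7.12 in delta arrays. Delta 3, at 7.18, overlapped with floxed 3, and the change was -0.27 (SE 0.09, 95% CI -0.47 to -0.07, limma adjusted p = 0.721), and -0.43 with sex pattern as a covariate (SE 0.13, adjusted p = 0.662). The proliferation list was likewise higher in floxed (7.91 to 7.998) than in delta arrays (7.70 to 7.77), and its part in the Uhrf1 value was not tested.

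**Figure D3:**
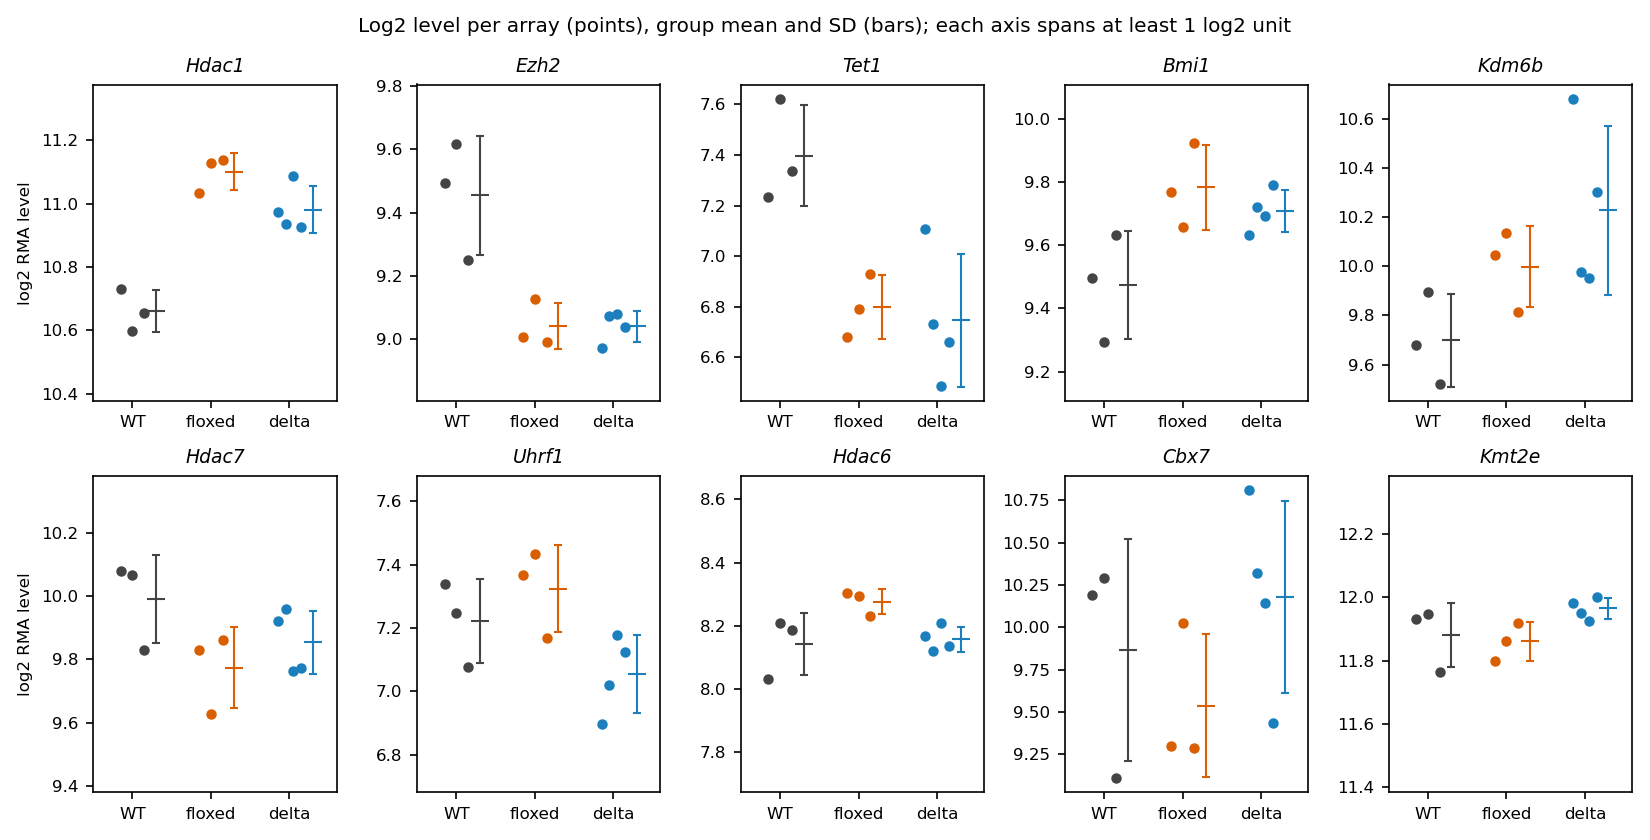
Log2 RMA level per array (points) with group mean and SD (bars) for the 10 members with the smallest p-values in the 3 comparisons; WT stands for wild-type, and each vertical axis spans at least 1 log2 unit. Hdac1, Ezh2 and Tet1 have all 7 transgenic arrays on 1 side of the 3 wild-type arrays, and Cbx7 spreads from 9.11 to 10.81.

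None of the 10 lysine demethylases passed the threshold. Kdm6b, an inducible enzyme that removes the Polycomb mark from lysine 27, was at 9.68, 9.89 and 9.52 in wild-type, 10.05, 10.13 and 9.82 in floxed, and 10.68, 9.98, 9.95 and 10.30 in delta arrays. Delta arrays lay above wild-type, floxed 3 did not, and delta 1 was the highest of all. The change of Kdm6b was 0.53 in delta against wild-type (SE 0.16, 95% CI 0.17 to 0.89, limma adjusted p = 0.382), and 0.38 in the arrays of female pattern alone (SE 0.12, adjusted p = 0.568). In floxed against wild-type it was 0.30 (adjusted p = 0.507), and -0.30 with sex pattern as a covariate (SE 0.22).

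The remaining demethylases stayed within 0.15 of wild-type in either transgenic group. Kdm1a (LSD1), which acts on lysine 4 within the CoREST complex, was at 9.54 to 9.62 in wild-type, 9.33 to 9.55 in floxed and 9.51 to 9.57 in delta arrays, a change of -0.15 in floxed against wild-type (limma adjusted p = 0.389). Kdm5a and Kdm5b, which remove trimethyl marks of lysine 4, were at -0.09 and -0.03, and Kdm2a and Kdm2b, which act on lysine 36, at 0.06 and 0.05. Kdm3a, Kdm4a, Kdm4b and Kdm4c, which act on lysine 9 and in part on lysine 36, were at -0.0097, 0.05, -0.00065 and -0.03 in the same comparison.

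The X-linked and Y-linked demethylase genes, which are not on the list, followed the sex pattern, with delta 1 apart from the other delta arrays. Kdm6a (UTX), which escapes X inactivation, was at 10.60 to 10.75 in wild-type arrays, 9.90 to 10.19 in floxed arrays and 10.13 in delta 1, against 10.63 to 10.81 in the other delta arrays. Kdm5c, another escape gene, was at 10.22 to 10.34, 9.82 to 9.91 and 9.81, against 10.28 to 10.37. Their Y-linked relatives Uty and Kdm5d went the other way. Uty was at 4.58 to 4.84 in the 6 arrays of female pattern and 9.16 to 9.71 in the other 4, and Kdm5d at 5.22 to 5.62 and 9.02 to 9.55. In floxed against wild-type the changes were -0.61 for Kdm6a and -0.42 for Kdm5c (limma adjusted p = 0.105 and 0.168). They were 3.96 for Kdm5d and 4.79 for Uty (adjusted p = 0.0585 and 0.0751), and -2.78 and -3.53 in delta against floxed (adjusted p = 0.641 and 0.650).

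**Figure D4:**
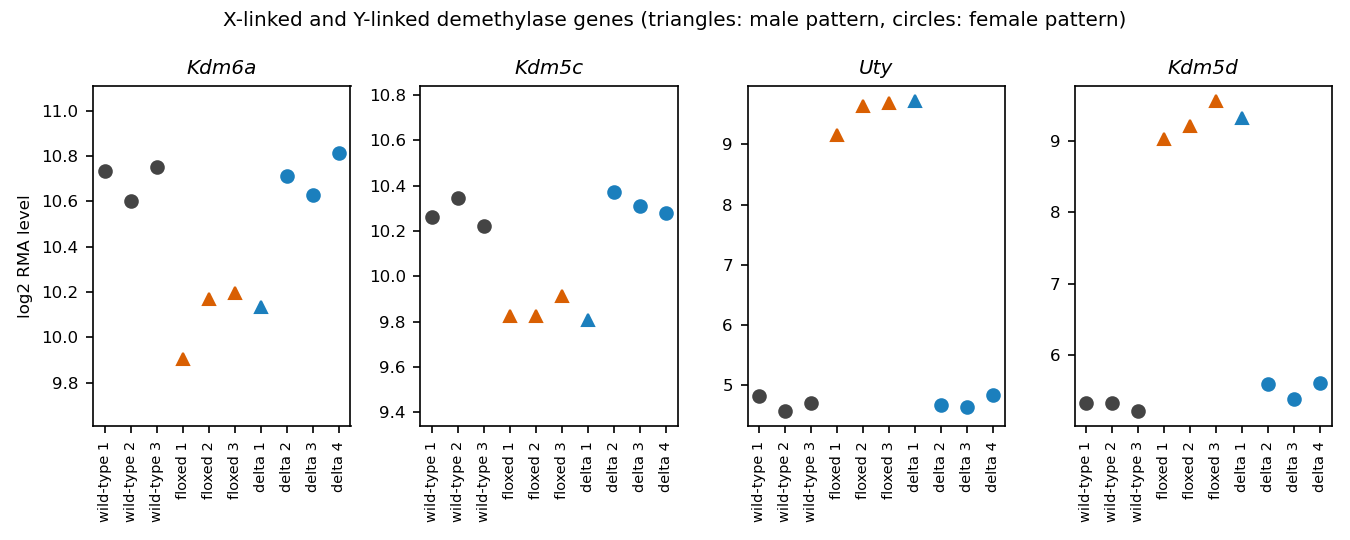
Log2 RMA level of Kdm6a, Kdm5c, Uty and Kdm5d in each of the 10 arrays; triangles are arrays of male pattern, circles arrays of female pattern, and colours mark the groups. Delta 1 lies with the floxed arrays in all 4 genes, and the other delta arrays lie with wild-type.

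The 6 genes grouped as methyltransferases of lysine 4 stayed close to their wild-type level. Their changes ran from -0.05 to 0.07 in floxed against wild-type and from 0.0088 to 0.11 in delta against wild-type. In delta against floxed they ran from -0.02 to 0.10. No member passed the threshold, and at the 1 probe set used per gene every interval lay within 0.3 of 0. A second probe set annotated to Kmt2d (10432294) was at 0.22 in floxed against wild-type (SE 0.09, limma adjusted p = 0.3355 over all probe sets). That of Setd1b (10525495) was at -0.0068. Kmt2d (MLL4), which marks enhancers, was at 10.64, 10.74 and 10.49 in wild-type, 10.67, 10.65 and 10.76 in floxed, and 10.64, 10.64, 10.65 and 10.76 in delta arrays, and the groups overlapped. Kmt2e, a relative with no known methyltransferase activity, was at 11.93, 11.95 and 11.76 in wild-type, 11.80, 11.86 and 11.92 in floxed, and 11.98, 11.95, 11.93 and 12.002 in delta arrays. Its delta arrays lay just above its floxed arrays, at a change of 0.10 (95% CI -0.03 to 0.24, limma adjusted p = 0.844). Kmt2a (MLL1), Kmt2c, Setd1a and Setd1b were at 0.11, 0.01, 0.0088 and 0.01 in delta against wild-type.

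The 6 other methyltransferases had no member past the threshold either. Setd2, the enzyme that places trimethyl marks on lysine 36, was at 11.03 to 11.32 in wild-type, 10.90 to 11.11 in floxed and 11.02 to 11.25 in delta arrays, a change of -0.18 in floxed against wild-type (limma adjusted p = 0.434). Ehmt2 (G9a), which writes dimethyl marks on lysine 9, was at 0.10 (adjusted p = 0.570), with floxed arrays (9.56 to 9.65) just above wild-type (9.46 to 9.55). Its partner Ehmt1 (GLP) was at -0.04. Setdb1, which trimethylates lysine 9, Nsd1, which acts on lysine 36, and Dot1l, that of lysine 79, were each at -0.02 or -0.03 in floxed against wild-type and within 0.01 of 0 in delta against wild-type.

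The acetyltransferases likewise showed no member past the threshold and no change beyond 0.11 in any comparison. Ep300 was at 11.63, 11.77 and 11.56 in wild-type, 11.47, 11.66 and 11.55 in floxed, and 11.66, 11.67, 11.64 and 11.69 in delta arrays. Its paralog Crebbp was at 11.78, 11.80 and 11.63, at 11.61, 11.60 and 11.68, and at 11.71, 11.70, 11.65 and 11.75 in the same order. The groups of both genes overlapped, and their changes in floxed against wild-type were -0.09 and -0.11 (limma adjusted p = 0.628 and 0.537). Kat2a (GCN5) had floxed arrays (9.28 to 9.35) just above wild-type (9.19 to 9.27) at a change of 0.06, and its paralog Kat2b (PCAF) was at -0.09. Kat5 (Tip60) and Kat6a (MOZ) were at -0.01 and -0.03.

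The 3 remodelling genes were at -0.08 (Arid1a, a BAF subunit), 0.03 (Smarca4, the BAF ATPase) and -0.05 (Chd4, the ATPase of NuRD) in floxed against wild-type. Chd4, which shares NuRD with Hdac1, was at 11.08 to 11.15 in wild-type, 11.03 to 11.12 in floxed and 10.86 to 11.17 in delta arrays. Its interval in floxed against wild-type was -0.23 to 0.13, where Hdac1 rose. Arid1a was just higher in delta (11.49 to 11.55) than in floxed arrays (11.43 to 11.48), a change of 0.07 (limma adjusted p = 0.890).

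**Figure D5:**
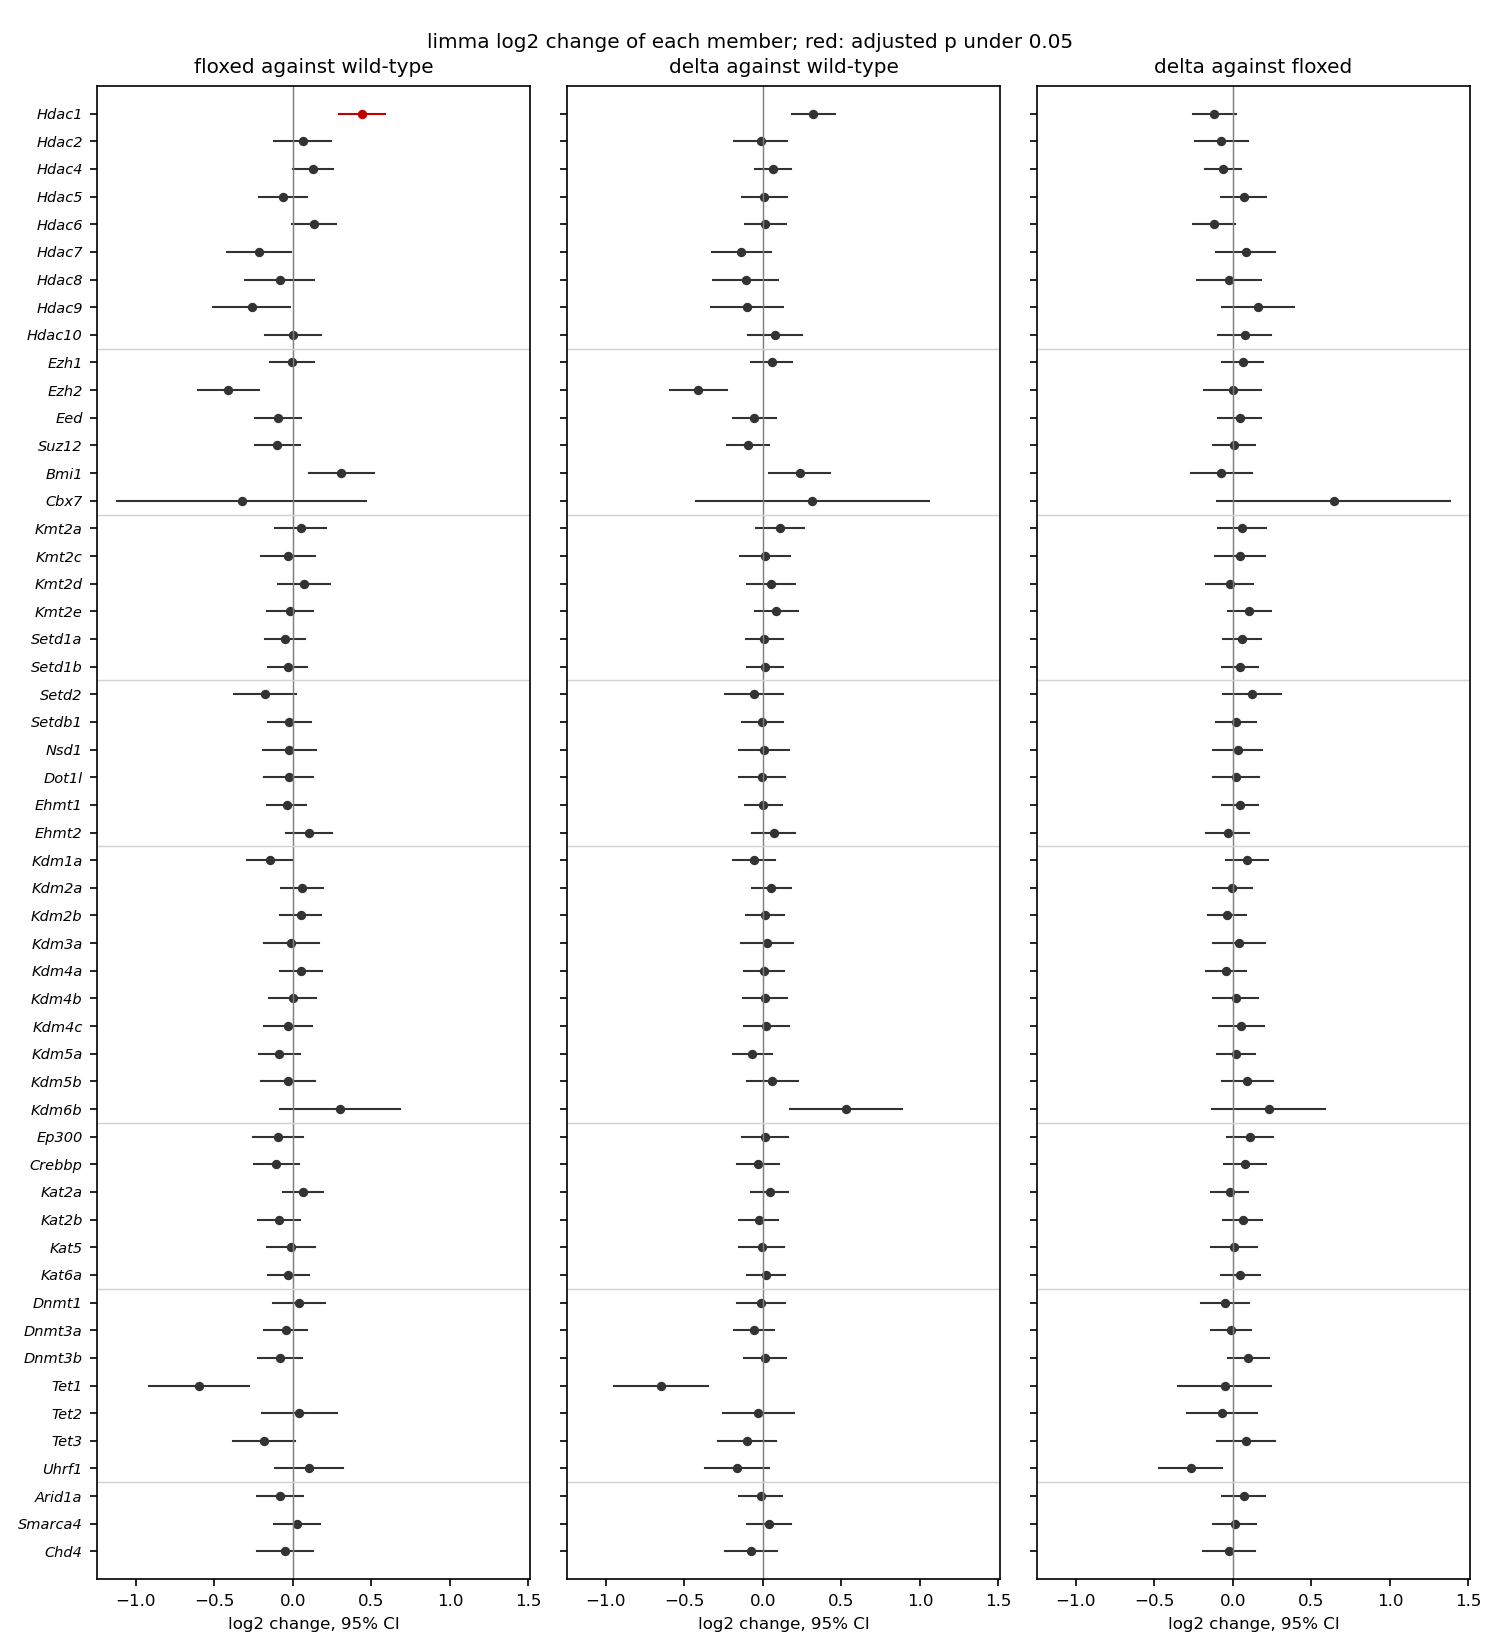
limma log2 change with its 95% CI for each of the 53 members in the 3 comparisons, grouped by role; red marks an adjusted p under 0.05 and grey lines separate the roles. Hdac1 in floxed against wild-type is the only red point, at 0.44, and Cbx7 has the widest intervals.

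Other genes of the same pathways came from a list of 93, of which 85 were measured. None passed the threshold in any of the 3 comparisons, and 9, 4 and 6 had an unadjusted p under 0.05 in these comparisons, taken in the order used above. These are 10.6%, 4.71% and 7.06%, beside 12.8%, 7.89% and 6.42% of all genes, and without Kdm5c, Kdm5d, Kdm6a and Uty the counts were 5, 4 and 2 of 81. Their median changes were -0.0062, -0.0044 and 0.0012. Outside the sex-linked genes, Smarca2, the alternative ATPase of BAF complexes, had the smallest p in floxed against wild-type, at 10.21, 10.22 and 10.18 in wild-type, 10.44, 10.51 and 10.56 in floxed, and 10.50, 10.35, 10.40 and 10.54 in delta arrays. All its transgenic arrays lay above wild-type, at changes of 0.30 (SE 0.07, limma adjusted p = 0.0751) and 0.25 (SE 0.06, adjusted p = 0.266).

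The PRC1 subunit gene Phc2 and the PRC2 cofactor gene Jarid2 were next in delta against wild-type. Phc2 was at 9.34 to 9.41 in wild-type, 9.55 to 9.63 in floxed and 9.48 to 9.61 in delta arrays, a change of 0.17 in delta against wild-type (limma adjusted p = 0.449). Jarid2 was at 10.61 to 10.83, 10.39 to 10.62 and 10.48 to 10.55, a change of -0.21 (adjusted p = 0.460). Sirt2, a cytoplasmic deacetylase, was at 10.06 to 10.14 in floxed and 9.87 to 9.94 in delta arrays, a change of -0.18 in delta against floxed (SE 0.05, adjusted p = 0.650).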

How the data were processed

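Each deposited value is an intensity after RMA, which the authors left on a linear scale (4.46 to 26808) and which was turned into log2 here. RMA is named per the submitters' processing notes; the sources used here do not give its software, version or probe annotation build. Of 34760 probe sets, 21640 carried 1 symbol, 1321 several and 11799 none in the platform annotation. Only the 21640 entered the tests. A gene measured by several of them (954 genes) was represented by the probe set of highest mean level, giving 19937 genes. Probe sets respond differently, so levels of different genes are not read as relative amounts of transcript. Members were ranked by level only to choose which to show. The number of arrays limits the precision.

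limma 3.58.1 in R 4.3.3 was fitted with 3 group means over all 10 arrays (lmFit, eBayes; 7 residual and 4.32 prior degrees of freedom), two-sided. The fit was tested on simulated data. Array values are given for members past the threshold and, per comparison, for the 5 members with the smallest p and the 3 with the highest and lowest levels (Kmt2e, Crebbp, Ep300; Tet1, Uhrf1, Dnmt3b, the last as ranges), with further members by role. Of the other chromatin genes, the 3 with the smallest p per comparison are named. Members and lists were chosen with earlier results of these data known. The alternatives covered normalization, centring, a filter at a mean log2 of 6, how probe sets were combined, the prior on the variance, weights per array, fits of only the groups compared, a replicate block, sex pattern (Eif2s3y, Kdm5d and Uty against Xist) and leaving out each array.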

Additional observations from a re-analysis of the deposited data

Results flagged for a closer look

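In the delta group of 4 arrays, the lowest and highest array of each of the 53 members was checked for a gap to the others beyond Dixon's 95% critical value. It was exceeded in 3 members, and chance flags about 1 in 20 groups. In all 3 the high array was delta 4. Hdac5 was at 8.98 there against 8.83 to 8.85 in the other delta arrays, Kmt2d at 10.76 against 10.64 to 10.65, and Ehmt2 at 9.70 against 9.52 to 9.54. The same array had the highest delta means of the T cell (6.95), NK cell (6.37), myeloid (7.17) and erythroid (7.15) lists. Within each of these lists its markers disagreed. In the myeloid list Adgre1 (10.15) and Itgam (8.58) were the highest of the delta arrays, and Csf1r (6.42) and Mpo (6.35) the lowest. Among T cell markers Cd3g (8.75) and Cd3e (7.82) were the highest, and Cd3d (5.65) and Cd8a (6.54) the lowest. Among NK cell markers Il2rb (8.33) and Prf1 (8.59) were the highest, and Gzmb (5.45) the lowest. Among erythroid markers Alas2 (9.33) and Trim10 (6.42) were the highest, and Epor (6.95) the lowest. The part of these lists in the 3 values was not tested.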

How the results depend on the processing

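For 24 pairs of a gene and the comparison in which its p named it, 456 values were recomputed; 453 kept their direction and 435 also their side of the threshold. The 3 that turned were the Y-linked genes with sex pattern as a covariate, Uty at -0.21 in floxed against wild-type and 0.22 in delta against floxed, and Kdm5d at 0.053 in the latter. Outside these pairs, that covariate also turned Kdm6b in floxed against wild-type (-0.30) and Tet1 in delta against floxed (0.31). The 24 pairs were chosen by p in these same arrays, so a kept direction is weak evidence. Hdac1 in floxed against wild-type was the only pair called at the start, so a kept side mostly counts genes that stayed uncalled. That call was kept in 8 of 9 other settings and in 6 of 10 fits with an array left out. The median change over members moved by less than the spread of the array medians (SD 0.051) in every alternative, but that spread is wider than the medians themselves. Leaving out 1 array gave medians of -0.061 to 0.0053 for floxed and -0.026 to 0.026 for delta arrays against wild-type. In delta against floxed they ran from 0.0014 to 0.059. The sign of the median against wild-type thus depended on single arrays. With an array left out, members called ran from 0 to 2 for floxed and 0 to 1 for delta arrays against wild-type and from 0 to 0 in delta against floxed, and all genes called from 18 to 240, 0 to 23 and 1 to 10. With sex pattern as a covariate the members called in floxed against wild-type went from 1 to 0, and all genes called from 110 to 2, and from 15 to 3 in delta against wild-type. All genes called in floxed against wild-type were 169 without dim genes, 208 with array weights, 193 with only the groups compared and 188 with the replicate block. In delta against wild-type they were 9 with a trended and robust prior, 0 with only the groups compared, 6 with the replicate block and 0 with every probe set kept. In delta against floxed the 1 called gene (Rdh10) became 3 with that prior, 2 with only the groups compared and 2 with the block. The replicate numbers were not taken to pair the arrays, since deviations of same-numbered arrays correlated at -0.08 to 0.12, and the block changed no call of a named gene. The cause of these shifts was not tested. Precision is limited by 3 or 4 arrays a group.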
